A study of Mus musculus with 8 samples.

Results

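The 10 genes of Toll-like receptor and NOD receptor signalling described here were measured in primary cortical astrocytes, and TNF-α raised Tlr2 and Ripk2 most among them whether or not Gstm1 was knocked down. The genes were the receptors Tlr2, Tlr3, Tlr4 and Nod1, the coreceptor Cd14, the adaptors Myd88 and Ticam1, the kinases Irak2 and Ripk2, and Irak3, known as an inhibitor of the pathway. They were chosen by gene symbol, with earlier results of these data known, and make up 10 of the 54146 genes in the files. All 10 had enough counts to be tested in every comparison. The astrocytes came from the cortices of newborn C57BL/6 mice, from cultures of pooled brains. All groups were infected with lentivirus and selected with puromycin, and all were depleted of CD11b-positive cells, the microglia and macrophages of the culture. Control KD cells expressed a non-silencing short hairpin RNA (shRNA) and GSTM1 KD cells an shRNA against Gstm1, which encodes a glutathione S-transferase. Each was sequenced without stimulation (basal level) and following 6 h of TNF-α at 50 ng/ml, and each of these 4 groups holds 2 biological replicates, 8 libraries in all.

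Toll-like receptors recognize conserved molecules of microbes and of damaged cells. TLR2 and TLR4 sit at the cell surface, where TLR2 binds bacterial lipoproteins and TLR4, helped by CD14, binds lipopolysaccharide. TLR3 binds viral RNA duplexes in endosomes. MyD88 carries the signal of most of these receptors through kinases of the IRAK family to NF-κB, whereas TRIF, the product of Ticam1, serves TLR3 and TLR4 and also leads to interferon production. NOD1 detects bacterial peptidoglycan in the cytosol and signals through the kinase RIPK2. Astrocytes are known to use these receptors in the response of the brain to infection and injury, and TNF-α, a cytokine of activated microglia, reaches NF-κB by its own receptors.

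The expected counts summed to between 17349676 and 34434633 per library, and 19434 to 21610 genes had a count. Gstm1 itself checked the labels: it stood at 373 and 619 TPM (RSEM's level of a gene, scaled for its length and for the library's total) in unstimulated control KD and at 49.7 and 53.8 TPM in unstimulated GSTM1 KD. After TNF-α it stood at 338 and 627 TPM against 40.5 and 39.4 TPM. Astrocyte markers were abundant in each library, with Gfap, the intermediate filament of astrocytes, between 651 and 4184 TPM. The 2 control KD libraries of replicate 1 stood apart from the others. Their summed level of 10 astrocyte markers was 1629 and 1624 TPM, against 3555 to 5802 TPM in the other 6 libraries, and their summed level of 20 microglia and macrophage markers was 183 and 178 TPM, against 59.2 to 80.6 TPM. Member calls that changed when one of these libraries was left out are given below. Because p-values come from 2 libraries a group, they rest on the spread between replicates that edgeR shares across genes, with a common coefficient of variation of 15.8% for the basal libraries, 14.5% for the stimulated ones and 15.4% over all 8 libraries.

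At the basal level Tlr3 was the most abundant of the 10 genes per length in both control KD and GSTM1 KD, followed by Irak2 and Myd88. In control KD the mean level was 31.7 ± 3.44 TPM for Tlr3 (SD, n = 2), 25.3 ± 0.481 TPM for Irak2 and 16.4 ± 1.52 TPM for Myd88, and the ranges of these 3 genes did not overlap. Ripk2, Ticam1 and Tlr2 followed at 10.9 ± 0.544, 10.9 ± 1.14 and 9.48 ± 0.891 TPM, with overlapping ranges between neighbours. Nod1 and Tlr4, at 3.76 ± 1.00 and 3.30 ± 0.629 TPM, could not be ordered either. Cd14 was at 2.02 ± 0.0636 TPM, and Irak3 was the lowest at 0.655 ± 0.0495 TPM. The order in GSTM1 KD began with the same 3 genes and ended with Cd14 and Irak3, but Tlr2, at 3.94 ± 0.926 TPM, stood eighth, below Tlr4 at 4.37 ± 0.304 TPM, with overlapping ranges. TNF-α changed the head of the order. Tlr2 led in both knockdown states after stimulation, with means of 377 ± 212 TPM in control KD and 312 ± 25.8 TPM in GSTM1 KD. Ripk2 came next and then Tlr3 in control KD, at 124 ± 22.7 and 36.5 ± 0.516 TPM, whereas in GSTM1 KD Tlr3 came before Ripk2, at 76.3 ± 26.3 and 56.1 ± 1.67 TPM. Irak3 was the lowest in all 4 groups.

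**Figure D1:**
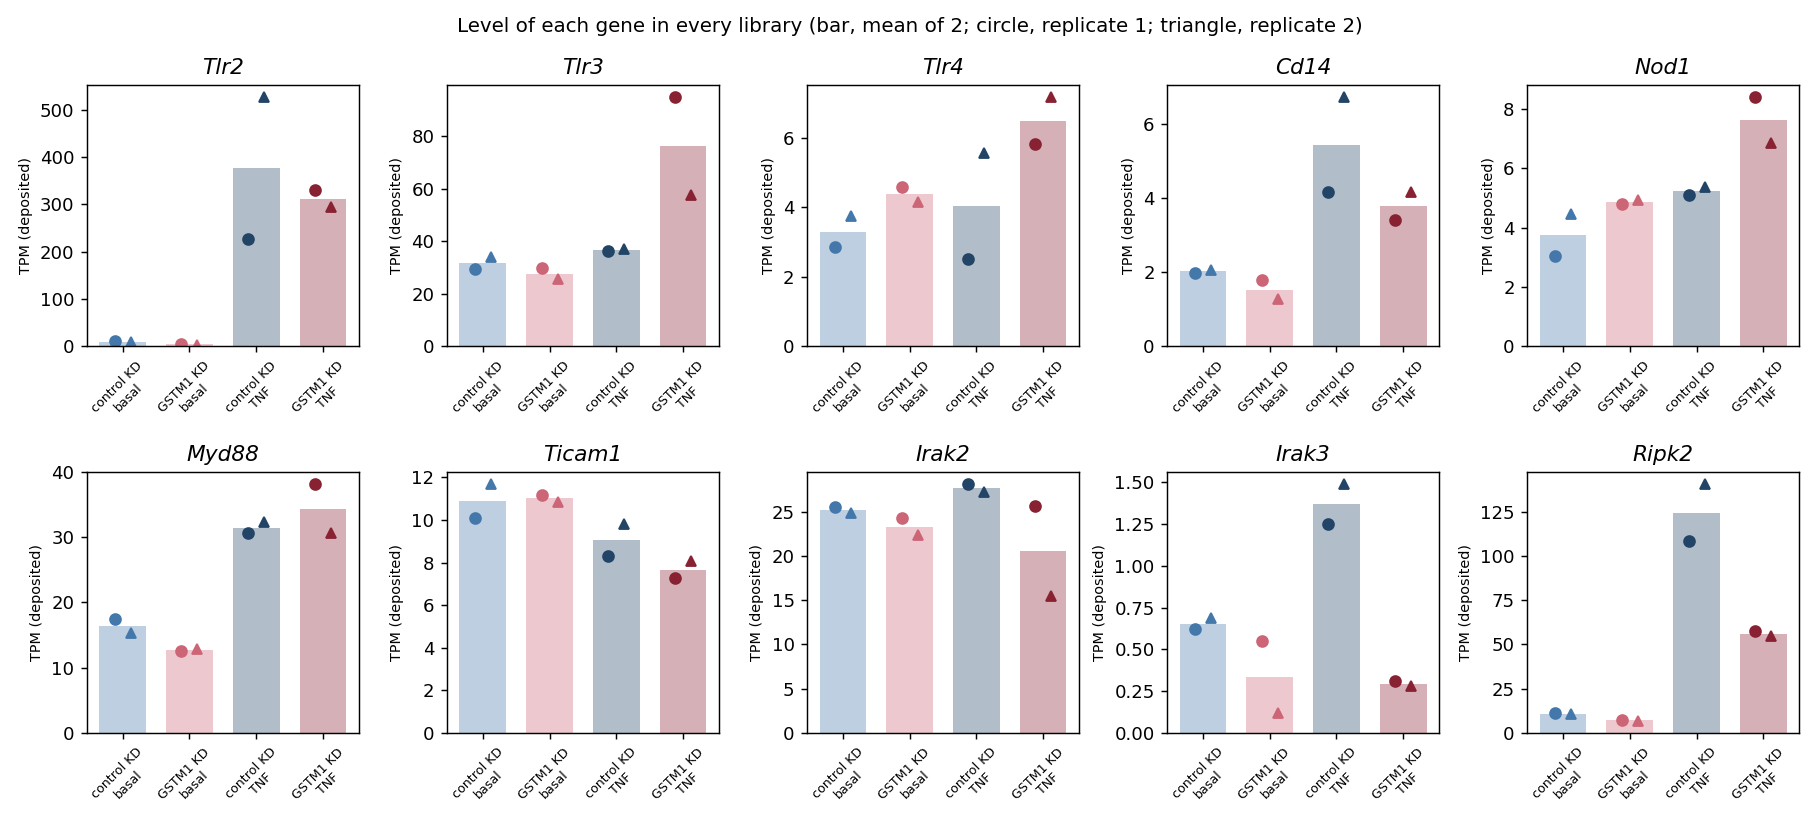
Level of each of the 10 genes in every library, as deposited TPM on a linear axis that starts at 0 and differs between panels. Bars are means of 2 libraries, circles are replicate 1 and triangles replicate 2, and the panels show Tlr2 and Ripk2 far above their basal levels after TNF-α, with Ripk2 at 57.3 and 54.9 TPM in GSTM1 KD against 108 and 140 TPM in control KD.

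The sequence before the start of 3 of these genes is shown because each holds a match to a binding motif of NF-κB or of the interferon response, the families named in the background above, and because these genes were called higher after TNF-α in at least 1 knockdown state. RefSeq promoter windows on GRCm38.p6, from 250 bases before to 50 bases after an annotated start, were found for 7 of the 10 genes, 9 windows in all. Tlr4, Cd14 and Ripk2 had no window. The starts are those of RefSeq and differ from the gene ends in the GENCODE annotation, given further below. The stretches shown for Tlr3 and Myd88 lie wholly inside the GENCODE span of the gene, and that of Tlr2 lies partly inside it. The 250 bases before the start are written 5′ to 3′ on the strand of the gene, with the motif match in capitals.
Tlr2, chr3:83841609-83841858, minus strand, NF-κB matches: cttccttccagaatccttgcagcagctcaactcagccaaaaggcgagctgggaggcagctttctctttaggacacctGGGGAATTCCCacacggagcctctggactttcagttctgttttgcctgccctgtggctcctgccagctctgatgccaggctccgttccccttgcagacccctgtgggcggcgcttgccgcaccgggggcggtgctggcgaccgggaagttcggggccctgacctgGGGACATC
Tlr3, chr8:45410381-45410630, minus strand, NF-κB match: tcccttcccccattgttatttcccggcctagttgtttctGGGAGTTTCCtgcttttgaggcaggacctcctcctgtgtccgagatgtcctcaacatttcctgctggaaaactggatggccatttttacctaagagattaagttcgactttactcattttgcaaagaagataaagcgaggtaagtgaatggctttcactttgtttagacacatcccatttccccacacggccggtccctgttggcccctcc
Myd88, chr9:119340019-119340268, minus strand, ISRE core match: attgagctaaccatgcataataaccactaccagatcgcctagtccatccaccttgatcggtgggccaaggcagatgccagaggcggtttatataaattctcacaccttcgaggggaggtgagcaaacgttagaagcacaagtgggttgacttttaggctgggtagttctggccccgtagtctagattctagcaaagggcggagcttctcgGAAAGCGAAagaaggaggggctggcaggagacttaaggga

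The NF-κB consensus matched Tlr2 at 3 places. The matches GGGGAATTCC and GGGAATTCCC began 173 and 172 bases before the start, overlap each other and so are 1 run of capitals above, and GGGACATCCC began 8 bases before the start and runs past it. In Tlr3 the match GGGAGTTTCC began 211 bases before the start. The core of the interferon-stimulated response element (ISRE), searched as GAAANNGAA, matched Myd88 as GAAAGCGAA 40 bases before the start, and matched 1 of the 2 windows of Irak3 on the opposite strand, as TTCATTTTC beginning 102 bases before that start. The AP-1 motif, searched as TGANTCA, matched none of the 9 windows. Both strands were searched. The NF-κB consensus is found in 8.46% of the 32851 mouse windows of this length, the ISRE core in 8.56% and the AP-1 motif in 7.81%, against 2, 2 and 0 of the 9 windows here. A match describes letters only, and binding was not measured.

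**Figure D2:**
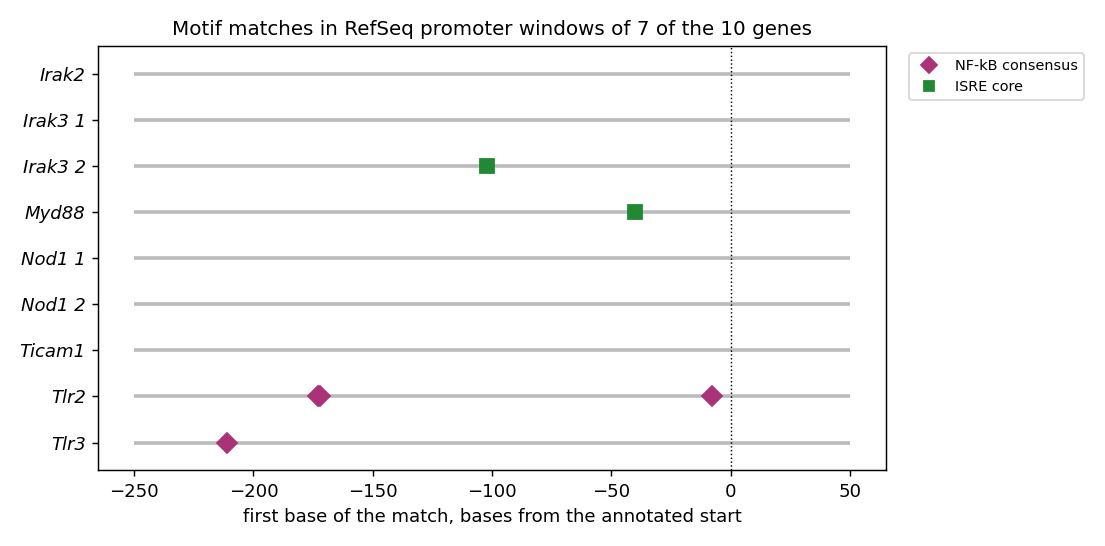
Place of each motif match in the promoter windows, drawn as the distance in bases of its first base from the annotated start (dotted line), with 1 grey line per window and numbers marking the 2 windows of Irak3 and of Nod1. Diamonds are NF-κB consensus matches and squares ISRE core matches, and Tlr2 holds 3 of the 4 NF-κB matches.

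The response to TNF-α was asked first in control KD. Of the 10 genes, 3 rose and none fell (no member with a value below 0 had an unadjusted p under 0.05) by the quasi-likelihood test of edgeR, with p-values adjusted by the Benjamini-Hochberg method over all 15332 genes tested, against 2.1% of all genes called higher and 0.528% called lower. The median log2 fold change was 0.79 over the 10 genes and -0.02 over all genes. Tlr2 rose from 10.1 and 8.85 TPM to 227 and 527 TPM. Both stimulated libraries lay far above both basal libraries, and the 2 stimulated libraries differed widely from each other. The log2 fold change was 5.34 (SE 0.431, 95% interval 4.32 to 6.35, adjusted p = 0.00173), a 40.4-fold rise that ranked 15 by size among the 322 genes called higher. With a library left out, the log2 fold change of Tlr2 ran from 4.61 to 5.82. Ripk2, the kinase that NOD1 signals through, rose from 11.3 and 10.5 TPM to 108 and 140 TPM, by 3.54 on the log2 scale (SE 0.151, adjusted p = 0.000239), or 11.6-fold. Myd88 rose from 17.5 and 15.3 TPM to 30.7 and 32.3 TPM, by 0.96 (SE 0.144, adjusted p = 0.0187), or 1.94-fold. Its call was lost when only the 4 control KD libraries were fitted (adjusted p = 0.0917) and when control KD replicate 2 at the basal level (0.097), replicate 1 after TNF-α (0.0557) or replicate 2 after TNF-α (0.0912) was left out. Tlr2 and Ripk2 kept their calls in those fits.

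In GSTM1 KD, 4 of the 10 genes rose after TNF-α and none fell (Ticam1 had an unadjusted p of 0.0114), against 2.35% of all genes called higher and 0.294% called lower. The median log2 fold change was 1.07 over the 10 genes and -0.01 over all genes. Tlr2 went from 4.59 and 3.28 TPM to 331 and 294 TPM, which is 6.34 on the log2 scale (SE 0.461, 95% interval 5.26 to 7.43, adjusted p = 0.00111). Ripk2 went from 7.43 and 6.75 TPM to 57.3 and 54.9 TPM, or 3.02 on that scale (SE 0.153, adjusted p = 0.000268). The replicates of Ripk2 lay close together and those of Tlr2 differed more at the basal level, while the states were far apart in both genes. Tlr3 rose from 29.8 and 25.5 TPM to 94.9 and 57.7 TPM, by 1.55 on the log2 scale (SE 0.224, adjusted p = 0.0144). Its 2 stimulated libraries differed from each other more than the basal ones did, yet both lay above every other library of the study. Myd88 rose from 12.6 and 12.8 TPM to 38.1 and 30.6 TPM, by 1.48 (SE 0.148, adjusted p = 0.00333). The calls of Tlr3 and Myd88 were lost when either basal GSTM1 KD library was left out, with adjusted p = 0.125 and 0.166 for Tlr3 and 0.0607 and 0.0567 for Myd88, and those fits called only 83 and 74 genes in all, against 406.

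The other members did not pass the threshold after TNF-α in either knockdown state. Cd14 came nearest. It went from 1.97 and 2.06 TPM to 4.16 and 6.71 TPM in control KD (log2 fold change 1.44, SE 0.32, adjusted p = 0.0725) and from 1.78 and 1.27 TPM to 3.39 and 4.15 TPM in GSTM1 KD (1.33, SE 0.339, adjusted p = 0.124). The stimulated libraries lay above the basal ones in both, on 19 to 89 counts a library, and Cd14 was called higher in control KD by DESeq2 (adjusted p = 0.0173) and in both knockdown states with no filter on low counts (adjusted p = 0.00147 and 0.0107). Nod1 had a log2 fold change of 0.63 in each knockdown state (SE 0.206 and 0.203, adjusted p = 0.232 and 0.255). Tlr3 in control KD went from 29.3 and 34.1 TPM to 36.2 and 36.9 TPM (0.36, SE 0.22, adjusted p = 0.647). Tlr4, the lipopolysaccharide receptor, stood at 2.85 and 3.74 TPM before and 2.51 and 5.55 TPM after TNF-α in control KD, and these libraries overlap. Its level in GSTM1 KD was 4.58 and 4.15 TPM before and 5.82 and 7.16 TPM after (0.54, SE 0.299, adjusted p = 0.667). Ticam1 was the only member with negative values in both, at -0.24 (SE 0.142, adjusted p = 0.633) in control KD and -0.49 (SE 0.144, adjusted p = 0.198) in GSTM1 KD. Irak2 changed by 0.31 and 0.24 (SE 0.136 and 0.138) and Irak3 by 1.12 and 0.81 (SE 0.357 and 0.488), with adjusted p from 0.22 to 0.72. With a library left out, the value of Irak3 in GSTM1 KD ran from 0.33 to 1.66. Irak2 and Irak3 had a log2 fold change of -0.14 and -0.01 in GSTM1 KD once the deposited effective lengths entered the fit.

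**Figure D3:**
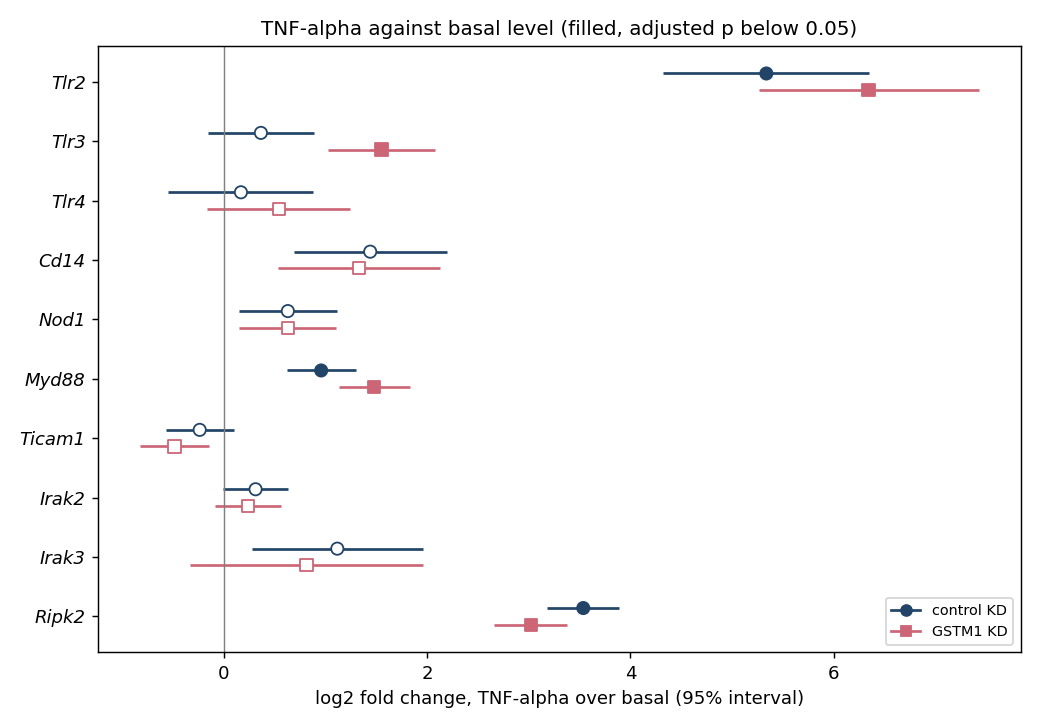
Response of the 10 genes to TNF-α, as the log2 fold change over the basal level in control KD (circles) and GSTM1 KD (squares), with bars for the 95% interval and filled symbols for an adjusted p below 0.05. Tlr2, Ripk2 and Myd88 are filled in both, Tlr3 in GSTM1 KD, and the intervals of control KD and GSTM1 KD overlap for Tlr2.

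Whether the knockdown altered these genes was asked in each state on its 4 libraries. At the basal level 1 of the 10 genes, Tlr2, was lower in GSTM1 KD and none was higher, against 5.62% of all 14899 genes tested called lower and 4.6% called higher. The median log2 fold change was -0.43 over the 10 genes and 0.00 over all genes, and 8 of the 10 values were below 0. Tlr2 was at 10.1 and 8.85 TPM in control KD but only 4.59 and 3.28 TPM in GSTM1 KD, on 584 and 366 against 166 and 102 counts. The libraries of the groups did not overlap, the log2 fold change was -1.33 (SE 0.225, 95% interval -1.89 to -0.77, adjusted p = 0.0285), and it ranked 165 by size among the 838 genes called lower. The call of Tlr2 depended on the libraries in the fit: with all 8 libraries the adjusted p was 0.0612. Leaving out each basal library in turn in that fit gave no call either, with log2 fold changes from -1.61 to -1.14. No member was called higher by DESeq2 either, and Nod1 was the 1 member with a positive value and an unadjusted p below 0.05 (0.0348). Nod1 was called higher only in edgeR with same-numbered replicates as a block (adjusted p = 0.0499), a setting described in the last section.

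The 2 members nearest to a call at the basal level were both lower in every GSTM1 KD library. Ripk2 was at 11.3 and 10.5 TPM in control KD and 7.43 and 6.75 TPM in GSTM1 KD (log2 fold change -0.68, SE 0.163, adjusted p = 0.0568). It was called lower by DESeq2 (adjusted p = 0.0241), with no filter (0.0109) and with all 8 libraries in the fit (0.0237), but that last call was lost in 3 of 4 fits that left out a basal library, all but the one without control KD replicate 2, with adjusted p from 0.0345 to 0.15. Irak3, which lacks kinase activity and restrains IRAK signalling, had 37 and 27 counts in control KD but 9 and 3 counts in GSTM1 KD (-1.92, SE 0.505, adjusted p = 0.0684), so its value rests on few fragments, and it was called lower with no filter (0.00442) and with all 8 libraries in the fit (0.0265). In the latter fit its value ran from -2.78 without GSTM1 KD replicate 1 to -1.45 without GSTM1 KD replicate 2, and the call was lost without that second library (adjusted p = 0.153) or control KD replicate 1 (0.0917). With the effective lengths its log2 fold change was -1.14, since the deposited length of Irak3 averaged 1751 bases in these GSTM1 KD libraries and 2753 bases in control KD. Myd88, at 17.5 and 15.3 against 12.6 and 12.8 TPM, had -0.44 (SE 0.16, adjusted p = 0.132), and Irak2 had -0.43 (SE 0.135, adjusted p = 0.0978), which became -0.17 with the effective lengths. Nod1 stood higher in both GSTM1 KD libraries, with 0.55 (SE 0.2, adjusted p = 0.13), or 0.33 with the effective lengths. Tlr4 and Cd14 had 0.32 (SE 0.218) and -0.46 (SE 0.342), neither past the threshold. Tlr3 and Ticam1 had -0.10 (SE 0.137, 95% interval -0.44 to 0.24) and -0.04 (SE 0.151, 95% interval -0.42 to 0.33), with overlapping libraries.

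After TNF-α 3 of the 10 genes passed the threshold, with Tlr3 higher and Ripk2 and Irak3 lower in GSTM1 KD, against 7.26% of all 14593 genes tested called higher and 8.92% called lower. The median log2 fold change was -0.33 over the 10 genes and -0.01 over all genes. Ripk2 was at 108 and 140 TPM in control KD and at 57.3 and 54.9 TPM in GSTM1 KD. The groups were well apart, and the log2 fold change was -1.22 (SE 0.151, 95% interval -1.60 to -0.85, adjusted p = 0.0131), which is 2.33-fold lower and kept its call with each library left out. As for Tlr2, the values with a library left out come from the fit of all 8 libraries without that one. Irak3 had 49 and 41 counts in control KD but 11 and 8 in GSTM1 KD. Its log2 fold change was -2.24 (SE 0.36, 95% interval -3.14 to -1.35, adjusted p = 0.0201), and it ranked 29 by size among the 1301 genes called lower. The adjusted p of Irak3 was 0.0116 with all 8 libraries in the fit, and 0.0705 and 0.0911 in that fit without GSTM1 KD replicate 1 or 2 after TNF-α. Tlr3 was at 36.2 and 36.9 TPM in control KD and at 94.9 and 57.7 TPM in GSTM1 KD. Both GSTM1 KD libraries lay above both control KD libraries, and the log2 fold change was 1.06 (SE 0.236, 95% interval 0.47 to 1.65, adjusted p = 0.04). With all 8 libraries in the fit it was 1.09 (adjusted p = 0.0173). Without GSTM1 KD replicate 1, the library with the highest level, it was 0.67 (adjusted p = 0.0576), and without control KD replicate 1 it was 1.01 (adjusted p = 0.0925).

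Tlr2 after TNF-α did not differ beyond its spread, at 227 and 527 TPM in control KD and 331 and 294 TPM in GSTM1 KD. The GSTM1 KD libraries lay between the 2 control KD libraries, and the log2 fold change was -0.34 (SE 0.38, 95% interval -1.29 to 0.60, adjusted p = 0.552). Its direction depended on 1 library: it was 0.39 without the second replicate of control KD and -0.82 without the first, where Tlr2 was called lower (adjusted p = 0.0495), as it was with no filter on low counts (adjusted p = 0.0442). Irak2 was lower in both GSTM1 KD libraries, at 25.6 and 15.5 TPM against 28.1 and 27.2 TPM (-0.52, SE 0.15, adjusted p = 0.068), and was called lower with all 8 libraries in the fit (adjusted p = 0.0436) and with no filter (adjusted p = 0.0102), but had an adjusted p of 0.233 with the effective lengths. Tlr4 and Nod1 stood higher in both GSTM1 KD libraries, with 0.67 (SE 0.32, adjusted p = 0.191) and 0.53 (SE 0.212, adjusted p = 0.138). Cd14 and Ticam1 stood lower, with -0.59 (SE 0.334, adjusted p = 0.257) and -0.31 (SE 0.17, adjusted p = 0.239). With a library left out, the value of Cd14 ran from -0.90 to -0.22. The value of Tlr4 was 0.27 without control KD replicate 1 (adjusted p = 0.497) and 1.20 without control KD replicate 2 (adjusted p = 0.0282), and Tlr4 was also called higher with no filter (adjusted p = 0.0184). Myd88 overlapped between the groups, at 30.7 and 32.3 TPM against 38.1 and 30.6 TPM (0.06, SE 0.152, 95% interval -0.32 to 0.44).

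**Figure D4:**
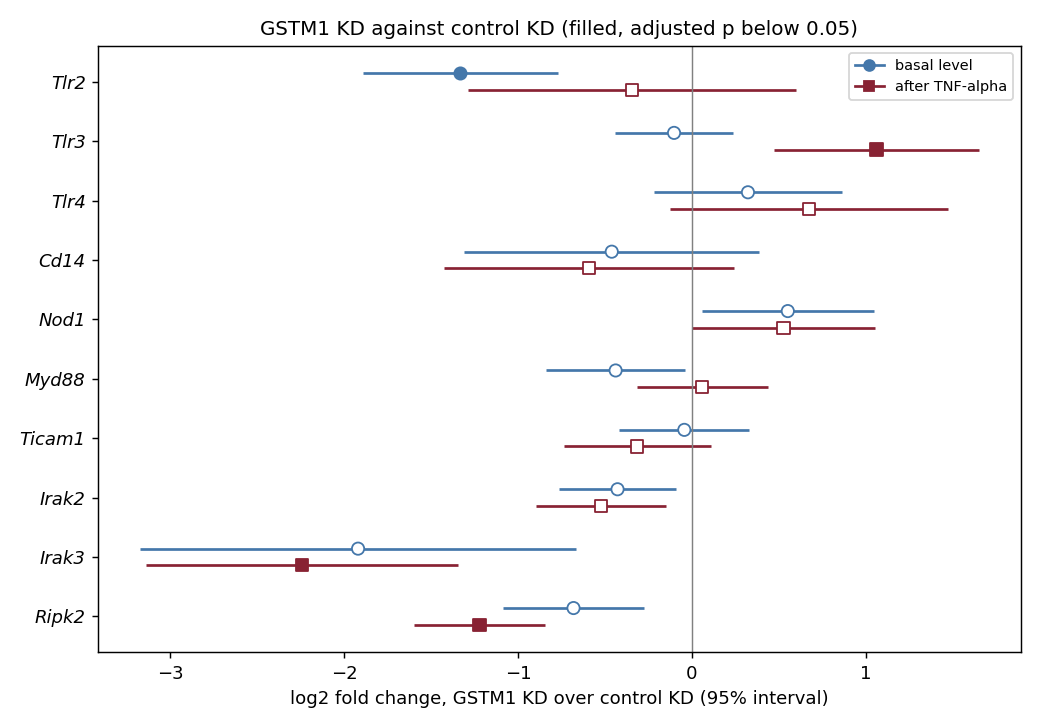
Difference between GSTM1 KD and control KD for the 10 genes, as a log2 fold change at the basal level (circles) and after TNF-α (squares), with bars for the 95% interval and filled symbols for an adjusted p below 0.05. Tlr2 is filled at the basal level only, and Tlr3, Irak3 and Ripk2 after TNF-α.

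Calls in one state and not in the other do not show that the effects differ, so the difference between the responses to TNF-α in GSTM1 KD and control KD was tested itself on all 8 libraries. None of the 10 genes passed the threshold by edgeR, and 0% of all genes were called, with 3 members and 295 of all 15332 genes at an unadjusted p below 0.05. DESeq2 called none of the 10 genes and 22 genes in all. The largest member value was that of Tlr3, whose response was higher in GSTM1 KD by 1.19 on the log2 scale (SE 0.312, 95% interval 0.45 to 1.92, unadjusted p = 0.00631). The response of Myd88 was higher by 0.52 (SE 0.205, unadjusted p = 0.0371), and that of Ripk2 differed by -0.52 (SE 0.202, unadjusted p = 0.0371). The adjusted p was 1.00 for each of these. Tlr2 had 1.01 with a wide interval, -0.25 to 2.26, and its stimulated control KD libraries differed 2.38-fold from each other. With a library left out, the value of Tlr2 ran from 0.52 to 1.74. For the other 6 genes the unadjusted p was 0.26 or more. Without the filter on low counts 2 members, Tlr2 and Tlr3, and 134 genes in all were called.

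The wider pathway was read from a list of 42 further genes of Toll-like and NOD receptor signalling. Between 27 and 30 of them had enough counts to be tested. Most other receptors were at or near 0: Tlr11 and Tlr12 had no count in any library, Tlr5, Tlr8 and Tlr9 had at most 6 counts, and Tlr1, Tlr7, Tlr13 and Nod2 at most 18. Tlr6, the partner of TLR2, had 20 to 69 counts a library, and Ly96, which encodes the MD-2 subunit that TLR4 needs to bind lipopolysaccharide, had 15 to 62. Of these other receptors, Tlr6 passed the filter on low counts in every comparison and Nod2 only in the fits of all 8 libraries.

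After TNF-α 2 of the 30 genes tested rose and none fell in control KD, where 2.1% of all genes rose and 0.528% fell. In GSTM1 KD 3 rose and none fell, against 2.35% and 0.294% of all genes, and the list's median log2 fold change was 0.12 in both. Birc3, an ubiquitin ligase of RIPK2 and of TNF receptor signalling, went from 7.99 and 8.71 TPM to 65.9 and 56.6 TPM in control KD and from 3.21 and 2.35 TPM to 36.6 and 28.4 TPM in GSTM1 KD. Its log2 fold changes were 3.08 (SE 0.146, adjusted p = 0.000239) and 3.73 (SE 0.162, adjusted p = 0.000255). Birc2, its close relative, rose by 1.35 and 1.29 (SE 0.138 and 0.139). Nlrc5, an NLR protein known for driving MHC class I genes and placed in the list as a pathway inhibitor, rose in GSTM1 KD, from 50 and 34 counts to 313 and 131 counts, by 2.51 (SE 0.345, adjusted p = 0.0116). Of these 3 rises in GSTM1 KD, 1 was left without either basal GSTM1 KD library. The number of genes higher depended on the setting: in control KD it was 5 with DESeq2, 6 with no filter and 1 with only the 4 control KD libraries in the fit, and in GSTM1 KD it was 5 with DESeq2, with no filter and with only the 4 GSTM1 KD libraries.

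Between GSTM1 KD and control KD, 1 gene of the list was higher and 2 were lower in each state, of 27 tested in unstimulated cells and 28 in stimulated ones, with medians of -0.02 and -0.06. Of all genes 4.6% were higher and 5.62% lower in unstimulated cells, and 7.26% and 8.92% in stimulated ones. Traf3, the ubiquitin ligase that TRIF uses on the way to interferon, was higher in GSTM1 KD. It stood at 14.6 and 20.4 TPM in control KD without TNF-α against 37.1 and 40.0 TPM in GSTM1 KD (1.24, SE 0.154, adjusted p = 0.0192), and at 25.1 and 27.6 against 55.8 and 59.1 TPM after TNF-α (1.07, SE 0.12, adjusted p = 0.0116). Birc3 was lower, by -1.64 (SE 0.231, adjusted p = 0.0224) at the basal level and -1.01 (SE 0.122, adjusted p = 0.0129) after TNF-α. Unc93b1, the chaperone that carries TLR3 and its relatives to endosomes, was also lower, with basal counts of 120 and 74 in control KD against 30 and 19 in GSTM1 KD (-1.48, SE 0.324, adjusted p = 0.0457) and -1.26 (SE 0.27, adjusted p = 0.0366) after TNF-α. The number of genes higher in stimulated cells was 2 with DESeq2, with the effective lengths and with all 8 libraries, and 3 with no filter, and 2 were higher in unstimulated cells with no filter, where 4 were lower. With all 8 libraries in the fit 3 genes of the list were lower in unstimulated cells and 2 in stimulated ones. In fits of 7 libraries 1 was lower at the basal level without control KD replicate 1 or GSTM1 KD replicate 2, and 1 after TNF-α without control KD replicate 1 or either GSTM1 KD library, while 2 were higher after TNF-α without GSTM1 KD replicate 2. None of the 42 genes was called for the difference between responses by edgeR or DESeq2, with 2 at an unadjusted p below 0.05, Birc3 and Nlrc5.

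Several of the 10 genes, Tlr2, Tlr4, Cd14 and Irak3 among them, are also expressed by microglia and macrophages, and in bulk RNA fewer cells of a type and less RNA per cell cannot be told apart. Of 20 markers of those cells, 9 had enough counts to be tested for the knockdown without TNF-α, 7 for the knockdown after TNF-α and 14 for the TNF-α responses, and none of those tested was called by edgeR's test. Without TNF-α, 8 of the 9 lay below 0 in GSTM1 KD, and their median log2 fold change was -0.93 against 0.00 over all genes. After TNF-α, 5 of the 7 lay below 0 and 2 above, with a median of -0.68 against -0.01. Among those 7 was Lyz2 at -2.96 (SE 0.872, adjusted p = 0.0722). Lyz2 (-3.20, SE 0.873, adjusted p = 0.0737), C1qa (-1.87, SE 0.797, adjusted p = 0.176) and Laptm5 (-1.76, SE 0.769, adjusted p = 0.182) stood lower in every basal GSTM1 KD library, as did Itgam, Trem2, Tyrobp and Fcgr3, which were too low to test. Their summed level was 79.0 to 183 TPM in control KD against 66.1 to 76.5 TPM in GSTM1 KD without TNF-α, and 79.9 to 178 TPM against 59.2 to 80.6 TPM after TNF-α. Siglech was at 0 in 7 of the 8 libraries and Aif1 in 5, and P2ry12 had at most 2 counts. Lyz2, the lysozyme gene of macrophages, stood at 108 and 16.7 TPM in basal control KD and at 8.13 and 6.14 TPM in basal GSTM1 KD. Lyz2 varied widely between the basal control KD libraries, in which Tlr2 was at 10.1 and 8.85 TPM, Cd14 at 1.97 and 2.06 TPM and Irak3 at 0.62 and 0.69 TPM. The part of these cells in the lower Tlr2 and Irak3 of GSTM1 KD was not tested. Among astrocyte markers 1 of 10, S100b, was called, lower in GSTM1 KD in both states (-1.44, SE 0.234, and -1.71, SE 0.375). Of the 10, 7 lay above 0 and 3 below in unstimulated cells, and 6 and 4 in stimulated ones. Their median log2 fold change was 0.20 and 0.06, against 0.00 and -0.01 over all genes. Gfap stood at 1.10 and 1.08 (SE 0.556 and 0.553) and Aldh1l1 at 1.05 and 1.22 (SE 0.464 and 0.423). Aldoc stood at 1.11 and 1.10 (SE 0.55 and 0.564), and the adjusted p of these genes ran from 0.102 to 0.234. In unstimulated cells Aqp4, Slc1a3 and Slc4a4 had -0.08, 0.01 and 0.04, and Sox9 had -0.50 (SE 0.213, adjusted p = 0.176). Of the markers of other cell types, Olig2 (oligodendrocyte lineage) and Col1a2 (fibroblasts) were lower in both states in GSTM1 KD, and Pdgfrl (fibroblasts) and Folr1 (choroid plexus) were higher. Olig1 (-0.44), Foxc1 (-0.62) and Pdgfrb (pericytes, 0.81) were called for the knockdown after TNF-α and had -0.40, -0.43 and 0.46 at the basal level, not past the threshold. For TNF-α itself Pdgfrb was called lower in control KD (-1.28, against -0.91 in GSTM1 KD, not past the threshold) and Olig2 in GSTM1 KD (-0.67, against -0.40 in control KD, not past the threshold). None of these markers was called for the difference between responses, and no neuronal marker was called.

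**Figure D5:**
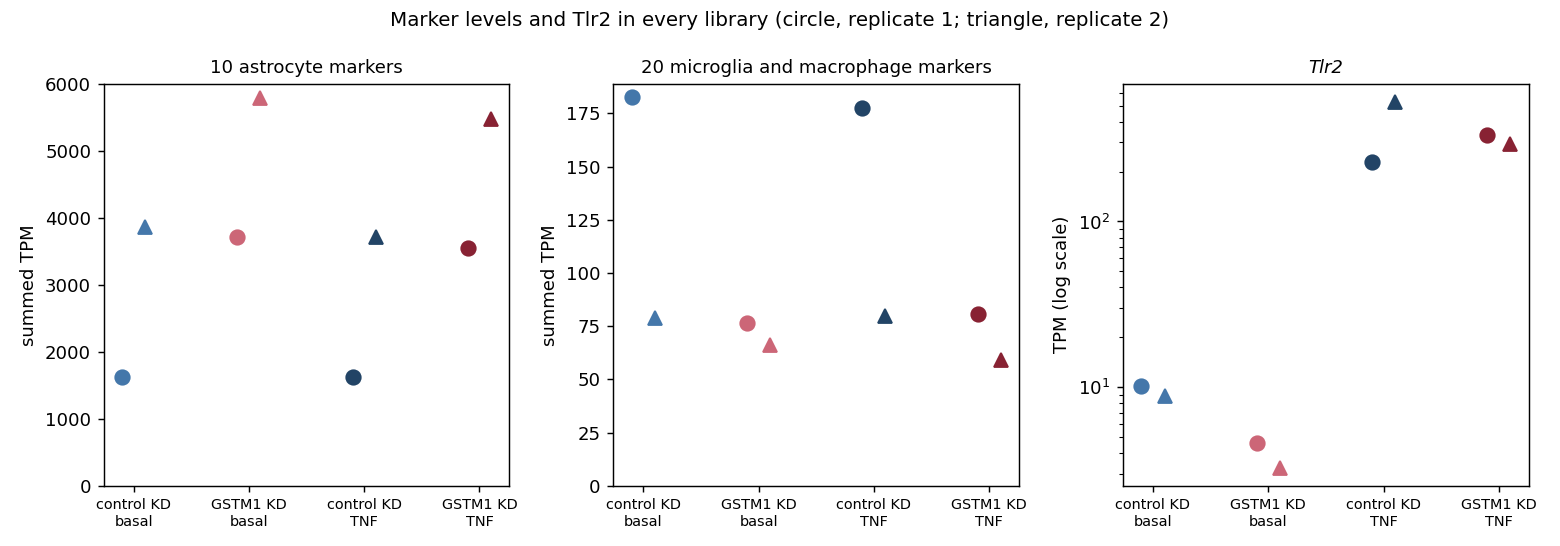
Summed TPM of 10 astrocyte markers (left), summed TPM of 20 microglia and macrophage markers (middle) and TPM of Tlr2 on a log axis (right) in every library, with circles for replicate 1 and triangles for replicate 2. The microglia and macrophage sum is 183 and 178 TPM in control KD replicate 1 and at most 80.6 TPM elsewhere, and Tlr2 separates the libraries by TNF-α.

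Across the 8 libraries the members fell into patterns, given as Pearson's r of log2 CPM with no test, since the libraries share the 4 groups and the TNF-α treatment. Tlr2 went with Myd88 (r = 0.981), Ripk2 (0.973) and Cd14 (0.945), and Tlr3 went with Nod1 (0.833). Ticam1 had negative values with all members compared, from -0.84 with Tlr3 to 0.00 with Irak2. Among all genes, those nearest to Tlr3 were Eif2ak2 (0.997), H2-T22 (0.990) and Ifit2 (0.990), of which Eif2ak2 and Ifit2 are known interferon-induced genes. Those nearest to Myd88 were Cd274 (0.992), H2-Q6 (0.992) and Nub1 (0.990). Ripk2 was nearest to Tmem132e (0.996), the adhesion molecule gene Icam1 (0.996) and the chemokine gene Ccl20 (0.995), and Tlr2 to the chemokine gene Ccl5 (0.995) and 2 unnamed models, RP23-52N2.1 (0.996) and RP23-214L4.1 (0.994). Cd14 was nearest to Mbd1 (0.986), Sh3d21 (0.983) and Nfkb1 (0.979), the last encoding a subunit of NF-κB. For Nod1 the genes were Trim5, Atp10a and Ankfy1 (0.974 to 0.982), for Irak2 Wee1, Rin3 and Edf1 (0.980 to 0.995), for Ticam1 Agap3, Cdk17 and Nol4l (0.969 to 0.974) and for Tlr4 Tsc22d1, Kctd3 and RP23-275N21.4 (0.958 to 0.968). Irak3 had too few counts for this measure.

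The genes lie on 8 chromosomes of GRCm38, and each is annotated as protein coding in GENCODE. Tlr2 (chr3:83836272-83841767), Tlr3 (chr8:45395665-45411080), Nod1 (chr6:54923949-54972612), Myd88 (chr9:119335934-119341411), Ticam1 (chr17:56269319-56276786), Irak3 (chr10:120141648-120202130), Ripk2 (chr4:16122733-16163647) and Cd14 (chr18:36725067-36726798) lie on the minus strand. Tlr4 (chr4:66827584-66930284) and Irak2 (chr6:113638467-113695026) lie on the plus strand. The counts of a gene are summed over its transcripts. Exons of Myd88 share 290 bases (11.3% of its exon length) with Acaa1a on the opposite strand, which had 1968 to 2956 counts, and exons of Irak3 share 192 bases (5.22%) with Tmbim4, which had 1005 to 1969 counts. If the counting did not use the strand, reads in those stretches could not be assigned with certainty, which matters most for Irak3 with its 3 to 49 counts. The exons that overlap Tlr3 and Irak2 belong to genes with at most 3.04 counts.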

How the data were processed

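RNA-seq was run on 8 libraries of mouse astrocytes, 2 in each of 4 groups mapped from their labels, with 1 file per library. The authors prepared libraries with a kit that marks the strand, aligned reads to GRCm38 by STAR (2.5.4b) and estimated expression by RSEM (1.3.0). The deposited expected counts are RSEM estimates and were rounded here. The deposited TPM values are scaled by the authors for length and depth and were used for levels only. The deposited effective lengths, in bases, entered 1 alternative. Whether counting used the strand is not given in the sources used here.

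Counts were fitted with edgeR (4.0.16, R 4.3.3) using TMM factors (0.956 to 1.03), the filterByExpr filter by group and quasi-likelihood F-tests, with adjusted p below 0.05 over all genes tested. The floor of 3 counts is 0.0862 to 0.181 CPM and covers counting error only. Knockdown was compared within the 4 libraries of a state, and TNF-α responses and their difference in all 8. Replicates of each group differed by more than sampling noise (13.8 to 55.4 times its variance). The fits were tested on simulated counts.

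The members and lists were chosen with earlier results of these data known. Named were all 10 members, at most the 5 listed pathway genes of smallest p called per comparison, the 3 genes most like each member, Gstm1, and marker genes beside results they move with. Alternatives were DESeq2 (1.42.0), its size factors, library size only, a stricter filter (10 counts or more in every library), no filter, effective lengths, a replicate block, other libraries in the fit and leaving out each library. Motifs were searched in RefSeq promoter windows, and protein sequences were not used here.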

Additional observations from a re-analysis of the deposited data

How the results depend on the processing

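Of 384 member log2 fold changes recomputed under settings other than leaving out a library, 357 kept direction and side of the threshold, 2 lost the call, 20 gained it and 5 turned, and of 240 with a library left out, 203 kept both, 15 lost the call, 5 gained it and 17 turned. Between GSTM1 KD and control KD at the basal level the number of members lower was 1, and it was 2 with DESeq2, 3 with no filter, 2 with all 8 libraries and 0 to 2 with a library left out. After TNF-α, 1 member was higher (2 with no filter, 0 to 2 with a library left out) and 2 were lower (4 with no filter, 3 with all 8 libraries and with the replicate block, 1 with 10 or more counts required in every library, where Irak3 drops out, and 1 to 3 with a library left out). The 4 members that rose after TNF-α in GSTM1 KD became 5 with no filter and 2 to 4 with a library left out, and the 3 in control KD became 4 with DESeq2, with no filter and with the replicate block (Cd14, adjusted p = 0.038 with the block). The difference between responses had 2 members with no filter. With the replicate block 4 members (Tlr2, Irak2, Irak3 and Ripk2) were lower and 1 (Nod1) higher in GSTM1 KD without TNF-α. In that fit 4712 genes in all were called against 1524. Genes called with the block after TNF-α numbered 4302 against 2360, and for the TNF-α responses 988 against 403 in control KD and 808 against 406 in GSTM1 KD, with 7 and 6 genes of the wider pathway list higher. For the knockdown, 4 genes of that list were higher with the block without TNF-α and 3 after it. Deviations of same-numbered replicates correlated at 0.165 to 0.575 between groups, each comparison has only 2 pairs, and what the number marks is not given in the sources used here. With a library left out, values ran from -0.227 to 0.0144 for Tlr3 and -0.142 to 0.0416 for Ticam1 (knockdown, basal), -0.82 to 0.39 for Tlr2 and -0.12 to 0.22 for Myd88 (knockdown, TNF-α), and -0.36 to 0.57 for Tlr4 (TNF-α, control KD). For the difference between responses they ran from -0.0334 to 0.898 for Tlr4, -0.42 to 0.26 for Cd14, -0.20 to 0.18 for Nod1, -0.249 to 0.0720 for Irak2 and -0.80 to 0.54 for Irak3. With effective lengths Irak2 and Irak3 in GSTM1 KD responded by -0.135 and -0.0116. Nod1 (difference between responses) was 0.00894 with no filter, 0.00591 with the replicate block and 0.187 with effective lengths. The cause was not tested. Irak3 gave no value with the stricter filter, nor for its TNF-α response in GSTM1 KD when only 4 libraries were fitted. Depth limits Irak3 most, then Cd14.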
